A study of Bos taurus with 6 samples.

Results

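Genes of central carbon metabolism were examined in bovine granulosa cells after exposure to fibroblast growth factor 18 (FGF18). The set held 46 genes of glucose uptake, glycolysis, the pentose phosphate pathway, the pyruvate dehydrogenase complex and the citrate cycle. Array probes were taken by the gene symbol in the platform annotation, and each gene was read by its probe of highest mean intensity over all 6 arrays. This gave 44 measured genes of 15229 on the array, and PKM2 and DLST were not analysed here. Of the 44, 42 were above background and each of these 42 was so on all 6 arrays in both conditions. ALDOC and IDH2 were not well above background on any array, so no fold is given for them.

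The cells came from Holstein crossbred cattle at an abattoir, from ovarian follicles of 2 to 6 mm, and no label gives an age or a genetic change. They were kept for 5 days in serum-free medium, with FSH and insulin, each at 10 ng/ml, in every group. One group then received FGF18 at 10 ng/ml for 2 h and the other stayed untreated, and no label says whether untreated cells were collected before or after those 2 h. If before, FGF18 and 2 h more of culture cannot be told apart. RNA from both groups was hybridised together on 6 arrays that read 2 colours, which form 3 biological replicates with 1 array in each dye orientation. The deposited data carry 1 running number per orientation, which may mark the slide, and an effect of slide cannot be told apart from one of dye. Insulin itself acts on glucose uptake, and it was present in treated and untreated cells alike.

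Granulosa cells surround the oocyte and are known to supply it with pyruvate, since the oocyte itself uses glucose poorly. Glycolysis splits glucose to pyruvate in the cytosol, and lactate dehydrogenase turns pyruvate into lactate. The pentose phosphate pathway branches off at the first phosphorylated sugar and makes NADPH, which steroid synthesis consumes, and ribose for nucleotides. Pyruvate dehydrogenase brings pyruvate into the citrate cycle as acetyl-CoA, and its kinases (PDK) switch it off.

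No gene of the set changed at the threshold. Of the 44 measured genes, 0 had an adjusted p under 0.05 in limma with Benjamini-Hochberg adjustment over all 15229 genes, where the share of all genes past that threshold was also 0%. Their adjusted p-values lay between 0.986 and 0.997. At an unadjusted p under 0.05 in limma there were 2 genes, PGD and PFKFB4, or 4.55% of the set, beside 3.49% of all genes. All ratios given here are log2 of FGF18 over control, given as mean ± SD of 3 replicates, and values of single replicates stand in the order 1, 2 and 3. The median ratio of the 44 genes was 0.09, and that of all genes was -0.01. For the set it was 0.07 without the 2 dim genes, 0.15 with median centring in place of loess and 0.030 to 0.076 with 1 replicate left out, lowest without replicate 2. In bulk RNA fewer cells of a type and less RNA per cell cannot be told apart.

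Agreement in direction was seen in some genes. In all 3 replicates 9 of the 44 genes were higher with FGF18 and 3 were lower, beside 12.1% of all genes higher and 12% lower. The 9 make up 20.5% of the set and the 3 make up 6.82%. On all 6 arrays 3 genes were higher (PFKFB4, PDHA1 and SUCLG1), beside 4.47% of all genes, and 3 were lower (PFKP, PGD and DLAT), beside 2.72% of all genes. ALDOC and IDH2 are among the 9, and without these dim genes 7 of 42 (16.7%) were higher in every replicate, beside 12.5% of all genes above background. The other 32 of the 44 had ratios on both sides of 0. The counts differed by dye orientation. With FGF18 in Cy5, 13 genes were higher and 5 lower in all replicates, beside 17.7% and 20.7% of all genes. With the control in Cy5, 5 were higher and 7 lower, beside 22% and 18.3% of all genes.

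**Figure D1:**
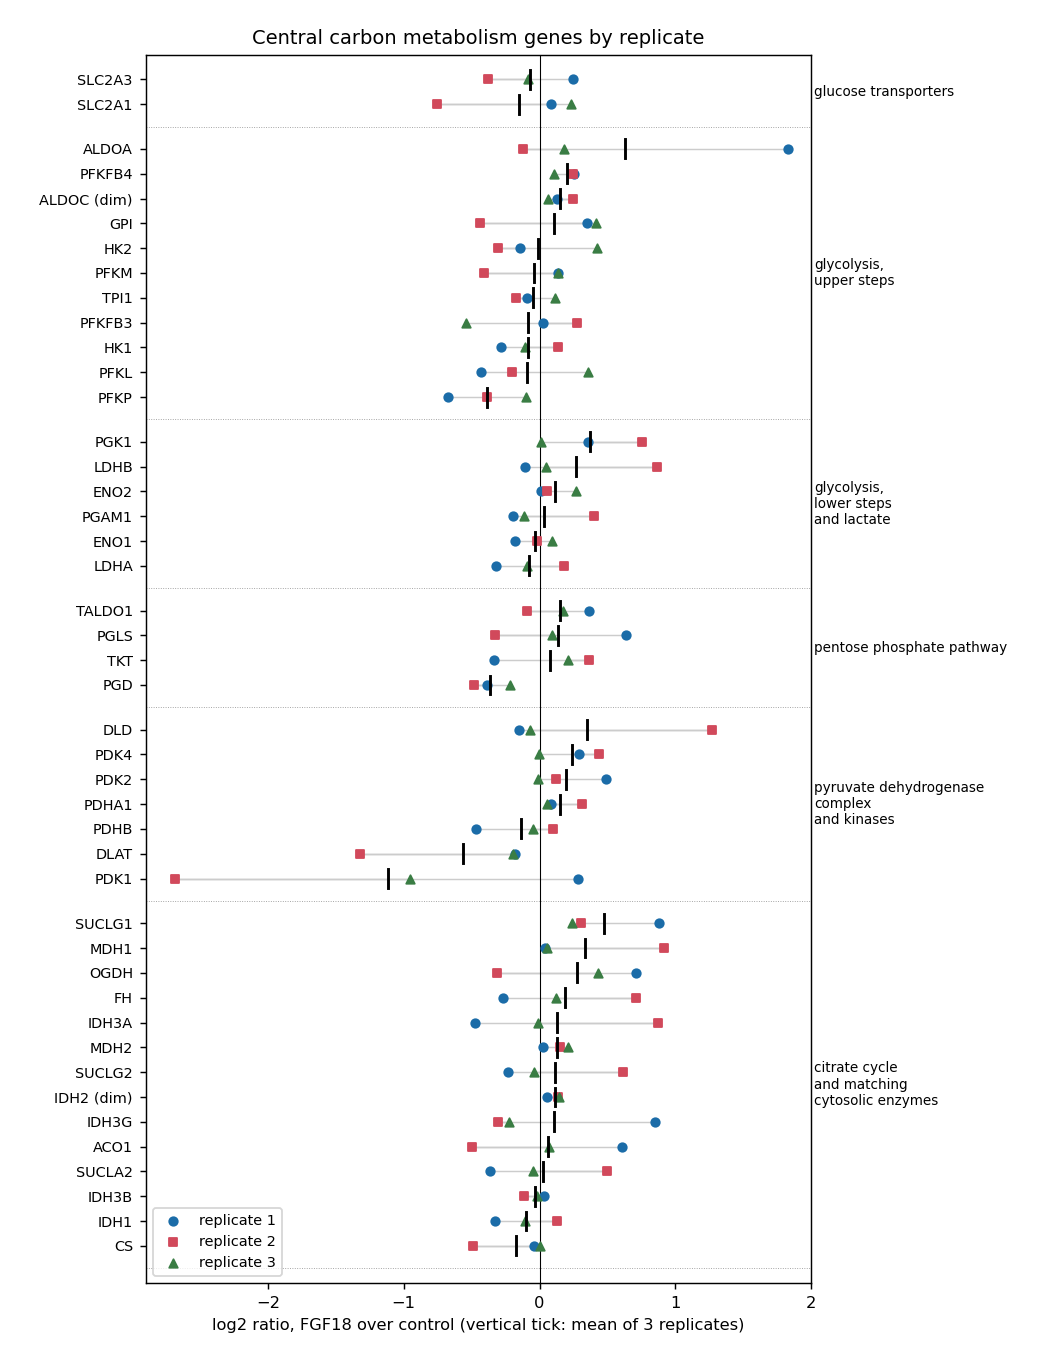
Each row is 1 gene, the x axis is the log2 ratio of FGF18 over control, the 3 symbols are the replicates and the vertical tick is their mean; (dim) marks genes not well above background. Most rows cross 0, and the widest is PDK1, from -2.68 to 0.28.

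The data bound most of these genes. The 95% interval of the ratio in limma lay within 2-fold in either direction for 39 of 44 genes (88.6%), beside 90.4% of all genes. It lay within 1.5-fold for 22 genes (50%), beside 70.7% of all genes. Among genes above background the shares were 88.1% of the set and 88.0% of the array within 2-fold. Within 1.5-fold they were 47.6% and 63.7%. The genes varied more between replicates than the array as a whole, with a median SD of 0.34 against 0.16, or 0.36 against 0.22 among genes above background. The 5 genes whose interval reached past 2-fold were ALDOA, DLAT, DLD, PDK1 and IDH3A.

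Glucose enters by facilitated transporters. SLC2A1 encodes GLUT1, the widespread basal transporter, and had ratios of 0.09, -0.76 and 0.23, with a mean of -0.15 ± 0.53. SLC2A3 encodes GLUT3, a high-affinity transporter, and had 0.25, -0.38 and -0.09, with a mean of -0.07 ± 0.31. Both were higher with FGF18 in replicate 1 and lower in replicate 2, so neither held a direction. For SLC2A1 the mean was 0.16 without replicate 2, and its other probe above background gave 0.10.

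In the upper steps of glycolysis 0 of 11 genes passed, and 2 (PFKFB4 and the dim ALDOC) were higher and 1 (PFKP) was lower in every replicate. That is 18.2% and 9.09%, beside 12.1% and 12% of all genes. The median ratio was -0.04. It was 0.07 with median centring in place of loess. Hexokinases trap glucose as a phosphate: HK1 had a mean of -0.08 ± 0.21, and HK2, the insulin-regulated form, had -0.14, -0.31 and 0.42 with a mean of -0.01 ± 0.38. Other probes of these genes gave 0.08 for HK1 and -0.12 and 0.03 for HK2. For HK2, replicate 3 lay on the other side of 0 from replicates 1 and 2. GPI, the isomerase of the next step, had 0.11 ± 0.48.

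Phosphofructokinase commits sugar to glycolysis and is built from 3 kinds of subunit. PFKP, the platelet-type subunit, had a log2 intensity, after loess and scaling between arrays, of 9.07, 9.26 and 8.99 in the 3 control RNAs and 8.40, 8.88 and 8.89 in the matching FGF18 RNAs. Every FGF18 RNA was lower than every control RNA, but the share of all genes with such a separation was not counted. The ratios were -0.67, -0.39 and -0.10, with a mean of -0.39 ± 0.29 and a 95% interval from -0.79 to 0.01, and its adjusted p was 0.986 in limma. PFKL, the liver-type subunit, had -0.43, -0.21 and 0.36, with a mean of -0.09 ± 0.41. PFKM, the muscle-type subunit, had a mean of -0.04 ± 0.32. PFKP lay below PFKL in every replicate, by 0.24, 0.18 and 0.46, but not below PFKM in replicate 2, where the difference was 0.02.

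The bifunctional enzymes PFKFB3 and PFKFB4 set the level of the sugar bisphosphate that activates phosphofructokinase. PFKFB4 had log2 intensities of 7.14, 7.02 and 7.38 in control and 7.40, 7.26 and 7.48 with FGF18, low on the scale of these arrays. It was higher with FGF18 in every pair and on each of the 6 arrays, while the groups overlapped. Its ratios were 0.25, 0.24 and 0.10, its mean was 0.20 ± 0.08 (1.15-fold) and its interval ran from 0.01 to 0.39. The unadjusted p was 0.0445 and the adjusted p was 0.986 in limma. PFKFB3, the growth-factor and stress-induced form, had 0.02, 0.27 and -0.54, with a mean of -0.08 ± 0.42, so the signs of these enzymes differed in replicate 3 alone.

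Aldolase and triose phosphate isomerase yield the triose phosphates. ALDOA, the main aldolase of most tissues, had the highest ratio of the set at 0.63 ± 1.05, but this rested on replicate 1, with 1.83, -0.12 and 0.18 in the replicates. Its log2 intensity was 10.09 in the control RNA of replicate 1 and between 11.92 and 12.51 in the other 5 RNAs. Without replicate 1 the mean was 0.03. In replicate 1 only 8 genes on the array, ALDOA included, had a ratio as high. TPI1 had -0.05 ± 0.15. ALDOC, dim on every array, read 6.36, 6.36 and 6.49 in control and 6.49, 6.60 and 6.55 with FGF18.

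**Figure D2:**
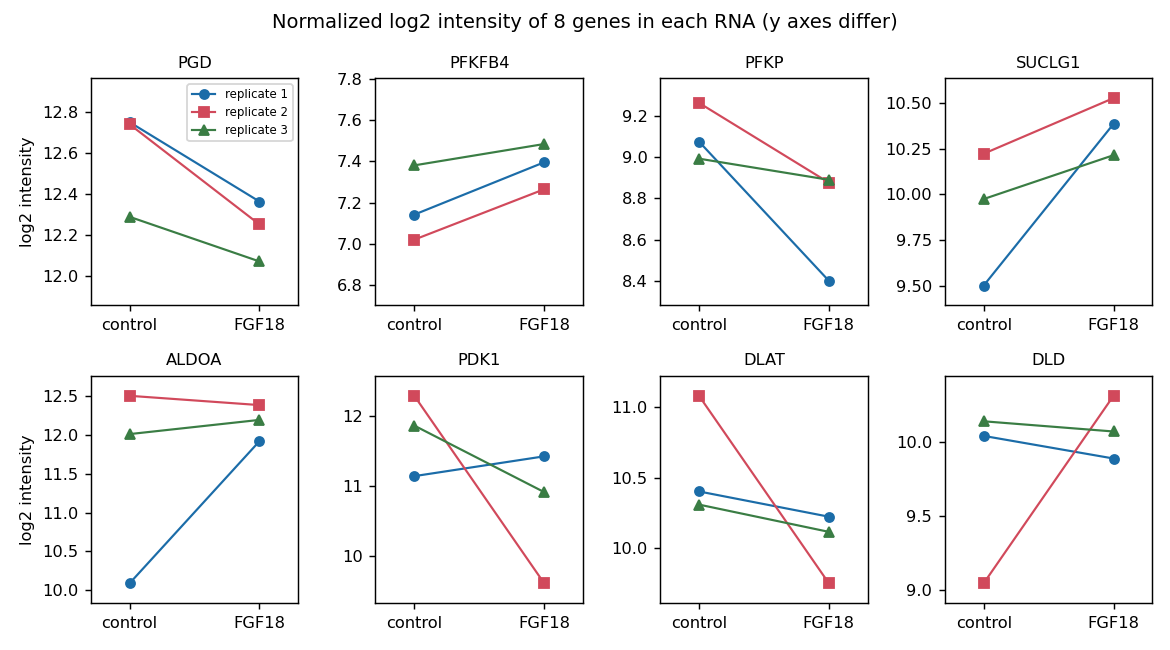
Normalised log2 intensity (y axes differ between panels) of 8 genes in the control and the FGF18 RNA of each replicate, with a line joining the pair. The upper row shows genes with the same direction in all replicates (PGD, PFKFB4, PFKP and SUCLG1). In the lower row 1 replicate carries most of the mean: replicate 1 in ALDOA and replicate 2 in PDK1, DLAT and DLD.

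In the lower steps and lactate formation 0 of 6 genes passed, and 2 (PGK1 and ENO2) were higher and 0 lower in every replicate. That is 33.3% and 0%, beside 12.1% and 12% of all genes. The median ratio was 0.07. It was -0.03 on the arrays with control in Cy5 and -0.04 without replicate 2. PGK1, which makes the first ATP of the pathway, had 0.36, 0.75 and 0.01, with a mean of 0.37 ± 0.37 and an interval from -0.12 to 0.87. It was close to 0 in replicate 3, where 1 of the arrays lay at -0.003. PGAM1 had 0.03 ± 0.32. ENO1, the common enolase, had -0.04 ± 0.14, and its other probe gave 0.22. ENO2, the neuronal enolase, had 0.01, 0.06 and 0.27 with a mean of 0.11 ± 0.14.

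LDHA and LDHB encode the subunits that favour lactate and pyruvate, respectively. LDHA had -0.32, 0.18 and -0.09, with a mean of -0.08 ± 0.25, and its second probe gave -0.09. LDHB had -0.11, 0.86 and 0.05, with a mean of 0.27 ± 0.52. LDHA lay below LDHB in each replicate, by 0.21, 0.68 and 0.14, while each had ratios of both signs. Most of the LDHB mean came from replicate 2, and without it the mean was -0.03.

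The pentose phosphate pathway held the lowest unadjusted p of the set. PGD, the phosphogluconate dehydrogenase that yields NADPH, had log2 intensities of 12.75, 12.74 and 12.29 in the 3 control RNAs and 12.36, 12.25 and 12.07 in the FGF18 RNAs. Every FGF18 RNA was lower than its own control, and the groups overlapped, since the control of replicate 3 read lower than the FGF18 RNA of replicate 1. The ratios were -0.38, -0.49 and -0.22, with a mean of -0.36 ± 0.14 (1.29-fold lower) and an interval from -0.60 to -0.13. The unadjusted p was 0.0145, and the adjusted p was 0.986 in limma. On the arrays with FGF18 in Cy5 the ratios were -0.32, -0.25 and -0.06, and with the control in Cy5 they were -0.45, -0.72 and -0.37.

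The other 3 genes of the pathway had ratios on both sides of 0. PGLS, the lactonase one step before PGD, had 0.64, -0.33 and 0.09, with a mean of 0.13 ± 0.48. TKT, transketolase, had -0.33, 0.36 and 0.21, with a mean of 0.08 ± 0.36. TALDO1, transaldolase, had 0.37, -0.09 and 0.17, with a mean of 0.15 ± 0.23, and 4 other probes above background gave 0.02 to 0.17. Of the 4 genes, PGD included, 0 passed, and 0 were higher and 1 was lower in every replicate. That is 0% and 25%, beside 12.1% and 12% of all genes. The median ratio was 0.11. It was -0.04 without replicate 1, 0.22 with median centring and 0.01 on the arrays with FGF18 in Cy5.

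In the pyruvate dehydrogenase complex and its kinases the mean ratios ran from -1.12 to 0.35, the widest range of any group of the set. Of 7 genes 0 passed, and 1 was higher and 1 was lower in every replicate. That is 14.3% each, beside 12.1% and 12% of all genes. The median ratio was 0.15, or -0.11 without replicate 2. In 3 of the 7 genes (42.9%) some replicate differed at least 2-fold, beside 6.32% of all genes and 7.85% of those above background. PDHA1, the catalytic alpha subunit, had 0.09, 0.31 and 0.06, with a mean of 0.15 ± 0.14, and was higher on all 6 arrays, but its other probes gave -0.16 and 0.35. PDHB, its partner subunit, had -0.14 ± 0.29, and its other probe gave 0.04.

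DLAT and DLD, the acetyltransferase core and the dehydrogenase that reoxidises it, stood far apart in replicate 2. DLAT had log2 intensities of 10.40, 11.08 and 10.31 in control and 10.22, 9.76 and 10.12 with FGF18. It was lower in every pair with no overlap of the groups, and the share of all genes without such overlap was not counted. The DLAT ratios were -0.18, -1.32 and -0.19 with a mean of -0.56 ± 0.66 and an interval from -1.42 to 0.29. DLD had 10.04, 9.04 and 10.14 in control and 9.89, 10.31 and 10.07 with FGF18, and ratios of -0.15, 1.27 and -0.07 with a mean of 0.35 ± 0.80. The control RNA of replicate 2 was the highest of the 6 RNAs for DLAT and the lowest for DLD. Without replicate 2 the means were -0.18 for DLAT and -0.11 for DLD.

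The kinases PDK1, PDK2 and PDK4 inactivate the complex, and PDK1 had the lowest ratio of the set. Its brightest probe had log2 intensities of 11.14, 12.29 and 11.86 in control and 11.42, 9.60 and 10.91 with FGF18. The ratios were 0.28, -2.68 and -0.95, with a mean of -1.12 ± 1.49 and an interval from -3.03 to 0.80, so replicates 2 and 3 were low and replicate 1 was not. Other PDK1 probes above background gave -0.25 and 0.13, and the mean of all its probes was -0.31. A profile of this kind was shared by 193 of the 15229 genes of the array. Its cut-offs were above 0 in replicate 1, at least 2-fold lower in replicate 2 and at least 1.5-fold lower in replicate 3. They were set from the values of PDK1, which thus met them by definition and was the only gene of the set to do so. Among markers of cell types, the leukocyte gene PTPRC had this profile with 0.42, -1.46 and -0.90. None of the other leukocyte and blood markers had it, with 0.80, -0.68 and 0.17 for CD68 and 0.48, 0.07 and 0.15 for TYROBP. The granulosa gene NR5A2 had this profile by its brightest probe, with 0.50, -2.81 and -1.33. Its other probes above background did not, the brighter of them with -0.10, 0.78 and -0.01. Of the other pathway genes HK3, a hexokinase, had this profile with 0.34, -1.11 and -1.08. PTPRC, NR5A2 and HK3 were named after their values were seen, and their part in the PDK1 values was not tested. PDK2 had 0.49, 0.12 and -0.01, with a mean of 0.20 ± 0.26. PDK4, the starvation-induced kinase, had 0.29, 0.44 and -0.01, with a mean of 0.24 ± 0.23, and its other probe above background gave -0.01.

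**Figure D3:**
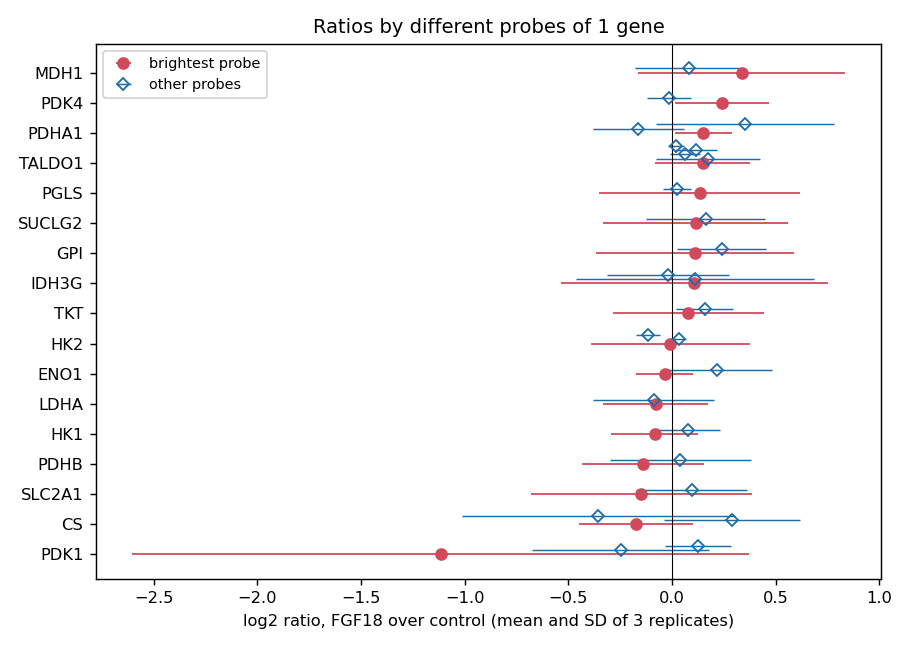
For 17 genes with a further probe above background, the log2 ratio of FGF18 over control (x axis, mean with bars of 1 SD over 3 replicates) is shown for the brightest probe (filled) and the others (open). In 10 of the 17 genes a further probe lay on the other side of 0, and PDK1 shows the largest gap.

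The citrate cycle, with cytosolic forms of its enzymes, gave ratios between -0.17 and 0.47 in 14 genes. Of these 0 passed, and 4 (SUCLG1, MDH1, MDH2 and the dim IDH2) were higher and 0 lower in every replicate. That is 28.6% and 0%, beside 12.1% and 12% of all genes. The median ratio was 0.11, or 0.03 without replicate 2. CS, citrate synthase, which opens the cycle, had -0.04, -0.49 and 0.01, with a mean of -0.17 ± 0.27, and its other probes above background gave -0.36 and 0.29. ACO1, the cytosolic aconitase that also acts as an iron sensor, had 0.06 ± 0.55. Its replicates lay at 0.61, -0.50 and 0.07, on both sides of 0.

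Isocitrate dehydrogenases were represented by 5 genes. IDH1, the cytosolic NADP-linked form, had -0.32, 0.13 and -0.11, with a mean of -0.10 ± 0.23. IDH2, the mitochondrial NADP-linked form, was dim on every array and read 6.21, 6.16 and 6.27 in control and 6.26, 6.30 and 6.42 with FGF18. The NAD-linked enzyme of the cycle has catalytic subunits from IDH3A and regulatory ones from IDH3B and IDH3G. IDH3A had -0.48, 0.87 and -0.01, with a mean of 0.13 ± 0.68, and IDH3G had 0.85, -0.30 and -0.22, with a mean of 0.11 ± 0.64. These subunits of 1 enzyme thus stood on opposite sides of 0 in replicates 1 and 2, and a second IDH3G probe followed the first with 0.71, -0.44 and 0.06. IDH3B stayed near 0 at -0.03 ± 0.07.

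Succinyl-CoA ligase pairs a shared alpha subunit, SUCLG1, with SUCLG2 or SUCLA2. SUCLG1 had log2 intensities of 9.50, 10.22 and 9.97 in control and 10.38, 10.53 and 10.21 with FGF18, and it was higher in every pair and on all 6 arrays, with a slight overlap of the groups. Its ratios were 0.88, 0.30 and 0.24, with a mean of 0.47 ± 0.35 (1.39-fold) and an interval from -0.01 to 0.96, and its adjusted p was 0.986 in limma. The beta subunits had ratios like each other and unlike SUCLG1 in replicate 1, with -0.23, 0.62 and -0.04 for SUCLG2 and -0.37, 0.50 and -0.05 for SUCLA2. Their means were 0.11 ± 0.45 and 0.03 ± 0.44.

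OGDH, which forms succinyl-CoA, had 0.71, -0.31 and 0.43, with a mean of 0.28 ± 0.53. FH, fumarase, had -0.27, 0.71 and 0.12, with a mean of 0.19 ± 0.50. Malate dehydrogenases close the cycle: MDH1, in the cytosol, had 0.04, 0.91 and 0.06 with a mean of 0.34 ± 0.50, and MDH2, in mitochondria, had 0.02, 0.15 and 0.21 with a mean of 0.13 ± 0.09. Both were higher in every replicate, MDH1 mostly through replicate 2, without which its mean was 0.05. A second MDH1 probe above background had -0.09, 0.38 and -0.04, with a mean of 0.08. MDH2 lay at -0.02 on the arrays with FGF18 in Cy5 and at 0.28 on those with the control in Cy5.

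**Figure D4:**
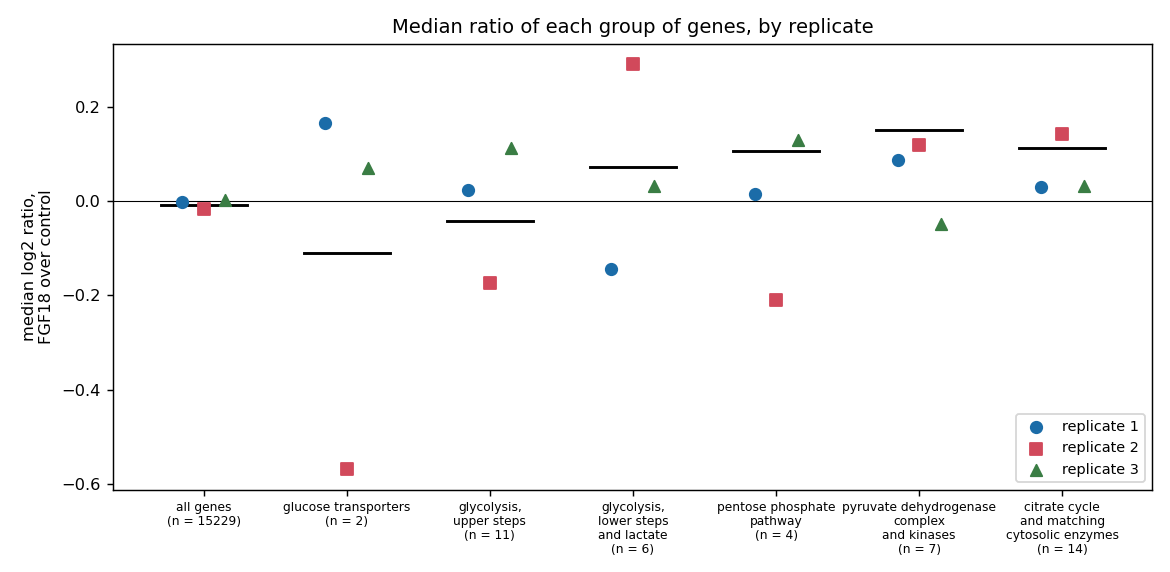
Median log2 ratio of FGF18 over control (y axis) over the genes of each group in each replicate (symbols), with a bar at the median of the genes' means over replicates. The medians of all genes lie near 0, and replicate 2 is the lowest for transporters, upper glycolysis and the pentose phosphate pathway and the highest for the other 3 groups.

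By replicate, the pathways did not keep 1 order. The median of upper glycolysis, with the dim ALDOC counted, was 0.02, -0.17 and 0.11 in replicates 1, 2 and 3. Without ALDOC that of replicate 1 falls midway between TPI1 at -0.09 and PFKFB3 at 0.02. The median of lower glycolysis was -0.14, 0.29 and 0.03. For the pentose phosphate pathway it was 0.02, -0.21 and 0.13, and for the pyruvate dehydrogenase group 0.09, 0.12 and -0.05. The citrate cycle, with the dim IDH2 counted, had 0.03, 0.14 and 0.03, the only group of these whose median was above 0 in each replicate. Without IDH2 its median in replicate 3 was the value of CS, 0.007. For all genes the medians were -0.00083, -0.02 and 0.002.

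Across the 44 genes, which are not independent replicates, the ratios of replicates 1 and 2 correlated at -0.18, those of 1 and 3 at 0.15 and those of 2 and 3 at 0.33. Over all genes the values were -0.26, -0.07 and 0.39. The genes of the set share arrays and RNA amplification within a replicate. The arrays of opposite dye of 1 replicate correlated at 0.88, 0.90 and 0.67 across the set. Replicates 1 and 2 had opposite signs in 24 genes, 12 in each sense, or 27.3% each, beside 29.8% of all genes with the positive sign in replicate 1 alone of these and 27.4% with it in replicate 2 alone.

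**Figure D5:**
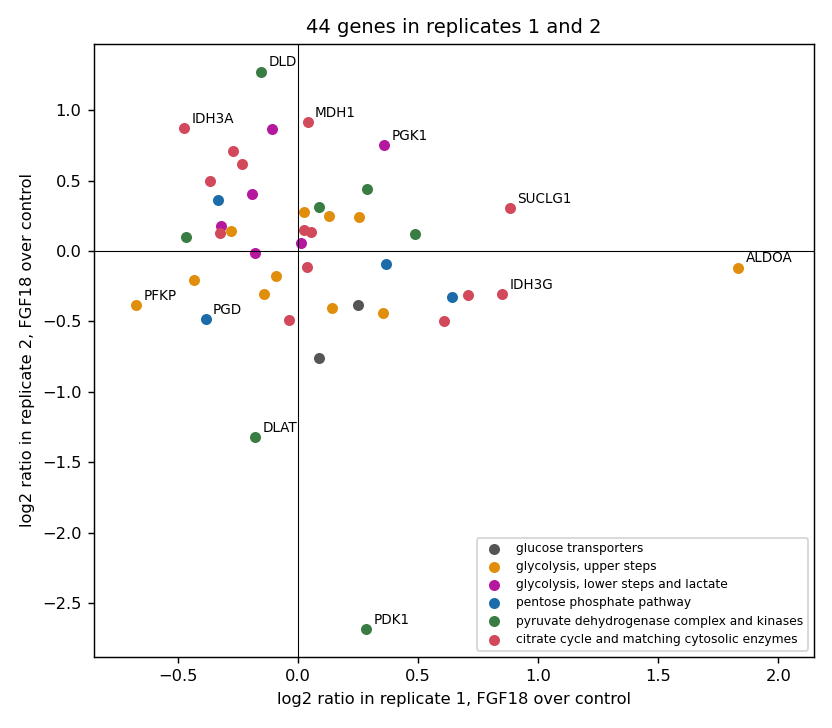
Each point is 1 of 44 genes, with its log2 ratio of FGF18 over control in replicate 1 (x axis) and replicate 2 (y axis), coloured by pathway. Points fill all 4 quadrants, with 24 genes in the 2 quadrants of opposite sign.

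The control RNA of replicate 2 stood at an end of the range for many of these genes. Among the 42 above background it had the lowest intensity of the 6 RNAs for 15 genes and the highest for 16, together 73.8%, beside 61.0% of all genes above background. Over all those genes it was lowest for 29.7% and highest for 31.3%. Its lowest readings were in upper glycolysis (2 of 10 genes), lower glycolysis (4 of 6), the pyruvate dehydrogenase group (4 of 7) and the citrate cycle (5 of 13). Its highest were in both glucose transporters, 6 of 10 genes of upper glycolysis and 1 of 6 of lower glycolysis. They were also in 2 of 4 genes of the pentose phosphate pathway, 2 of 7 of the pyruvate dehydrogenase group and 3 of 13 of the citrate cycle. The control RNA of replicate 1 was lowest for 10 of the 42 genes and highest for 12, beside 22.5% and 25.7% of all genes above background. For MDH1 the control RNA of replicate 2 read 13.45, against 14.36 to 14.62 in the other 5 RNAs. For LDHB it read 13.67, against 14.49 to 14.73, and for SLC2A1 it read 12.24, against 10.99 to 11.48.

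Other genes of these pathways, 53 listed and 46 measured, were read in the same way. Of the 46, 0 passed the adjusted threshold and 0 had an unadjusted p under 0.05 in limma, beside 0% and 3.49% of all genes. In every replicate 3 were higher (6.52%) and 2 were lower (4.35%), beside 12.1% and 12% of all genes. The median ratio of the 46 was -0.02. The lowest unadjusted p among those above background belonged to ADPGK, MPC1, SDHC and PGM1. ADPGK, an ADP-using glucokinase, had -0.51, -0.36 and -0.06, with a mean of -0.31 ± 0.23. Its other probes above background gave 0.48, higher in every replicate, and 0.06, so its probes differed in sign. MPC1, a subunit of the mitochondrial pyruvate carrier listed on the array as BRP44L, had 0.19, 0.84 and 0.16, with a mean of 0.40 ± 0.38, and SDHC, a membrane subunit of succinate dehydrogenase, had 0.16 ± 0.13. Other probes above background gave 0.03 for MPC1 and 0.18 for SDHC. PGM1, which links glycogen to glycolysis, had -0.28 ± 0.31. The lactate carriers SLC16A1 and SLC16A3 had 0.15 ± 0.35 and -0.04 ± 0.73, and other SLC16A1 probes gave 0.01 and -0.10.

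Per channel, 45.7% to 73.5% of the 43794 gene probes exceeded background. Of 15 granulosa markers 13 were above background, among them FSHR, AMH and INHA, while FOXL2 was not well above it on any array. CYP19A1, the aromatase, exceeded it in 2 FGF18 channels and 4 control channels, of 6 each. All 10 theca and stroma markers were above it, and the log2 of their summed level was 16.19 to 16.59 with FGF18 and 16.24 to 16.62 in control, beside 15.71 to 16.25 and 15.66 to 16.31 for the granulosa list. The brightest theca and stroma markers were PDGFRA, LUM and COL3A1, with mean log2 intensities of 14.79, 14.68 and 13.97. INSL3, LHCGR and CYP17A1 of the same list read 7.17, 6.68 and 6.77. LHCGR exceeded background in 1 FGF18 and 3 control channels. Among 10 endothelial, 12 leukocyte and blood and 10 oocyte markers, 8, 8 and 5 were above background. The theca enzyme CYP17A1 exceeded background in 3 FGF18 and 4 control channels. Median ratios of the 5 lists lay between -0.03 and 0.03, but that of the granulosa list was 0.30 in replicate 2, and single markers, named here after their values were seen, lay on both sides of 0. INHA had 0.73 ± 0.25, GJA1 0.58 ± 0.42, FSHR -0.31 ± 0.20, NR5A2 -1.21 ± 1.66 and PTPRC -0.65 ± 0.97, each with an adjusted p of 0.986 in limma. Other probes above background gave 0.22 and 0.09 for NR5A2 and 0.19 for GJA1. The part of these markers in the values of the set was not tested.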

How the data were processed

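Bovine granulosa cell RNA, amplified in 2 rounds with T7 polymerase and labelled with Cy3 or Cy5 per the labels' protocols, was read on 6 arrays of 2 colours. The deposited scanner files give spot intensity and local background intensity per channel, not normalised per the file headers. The authors' deposited log2 ratios correlated at 1 with log ratios made here by plain background subtraction and loess, as FGF18 over control in all columns, with column medians from -0.003746 to 0.001896. The scanner software was not given in the sources used here.

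Intensities were corrected with normexp (offset 50) and normalised within arrays by loess (span 0.3) in limma 3.58.1 (R 4.3.3), with 1426 control spots at weight 0. Log2 ratios were turned to FGF18 over control. Intensities of single RNAs were scaled between arrays by Aquantile. Symbols came from the platform annotation, in which 21790 probes had 1 gene symbol and the other 22004 are unnamed here, and BRP44L was named MPC1 through RefSeq. Background was the mean plus 2 SD of 153 negative control spots, and a probe had to pass it on 3 or more arrays for FGF18 or for control. Opposite-dye arrays were averaged within each replicate, lmFit and eBayes were run on 15229 genes, and p-values were adjusted by Benjamini-Hochberg.

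The titles number the arrays 1 to 3 in each orientation, and opposite arrays of 1 number correlated at 0.70, 0.80 and 0.32 over all genes, so the numbers were taken as pairs. No label says whether they share an RNA extract. The ratios of replicates are biological per the labels, which do not say how many animals each holds. The fit was tested on simulated data.

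The genes, lists and tests were chosen with earlier results of these data known. Replicate values are printed for the 3 genes of lowest unadjusted p in each pathway group, the 3 of largest SD and a fixed panel, and for the 4 other pathway genes of lowest unadjusted p and the lactate carriers. Some further genes have replicate values beside a subunit or neighbour enzyme, chosen after their values were seen. The 18 alternatives covered background correction, normalisation, probe choice, dim probes, dye orientation, the treatment of arrays and replicates left out.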

Additional observations from a re-analysis of the deposited data

Results flagged for a closer look

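IDH3B, a regulatory subunit of the NAD-linked isocitrate dehydrogenase, was above 0 on every array with FGF18 in Cy5 and below 0 on every array with the control in Cy5. Its mean log2 ratio of FGF18 over control was 0.11 in the first orientation and -0.17 in the second, a difference of 0.279. The dye term itself had an adjusted p of 0.229 in limma, so this difference did not pass. It was 1 of 44 genes of the set (2.27%) with such a split, beside 15.2% of all genes.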

How the results depend on the processing

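Under all 18 alternatives 0 genes of the set and 0 genes of the array had an adjusted p under 0.05 in limma. The lowest adjusted p of a gene of the set was 0.195, for PGD, when the 6 arrays were taken as independent samples with a dye term. With the replicate block on 6 arrays it was 0.788, the median ratio of the set stayed at 0.09, and the block changed no call. At an unadjusted p under 0.05 there were 2 genes of the set, 10 with independent arrays, 6 with the replicate block, 5 with control in Cy5, 4 with the mean of all probes, 1 with dim probes left out and 0 with separate channels and no replicate block. Genes of the array at that level were 531, against 1717 with independent arrays, 934 with the block and 280 with separate channels. Median centring in place of loess gave medians of 0.15 for the set, 0.26 for the pyruvate dehydrogenase group and 0.21 for the citrate cycle, and on the arrays with control in Cy5 the pyruvate dehydrogenase median was 0.056. Leaving out 1 replicate each gave 0.030 to 0.076 for the set, -0.11 to 0.20 for the pyruvate dehydrogenase group and 0.029 to 0.16 for the citrate cycle. The cause was not tested. Some medians changed sign: transporters to 0.12 and upper glycolysis to 0.10 without replicate 2, and the pentose phosphate pathway to -0.04 without replicate 1. PGD, PFKFB4, PFKP and SUCLG1 kept their sign in all 18, with ranges of -0.52 to -0.21, 0.16 to 0.26, -0.53 to -0.24 and 0.27 to 0.59. Each had the same sign on all 6 arrays, so leaving out a replicate or a dye orientation could not turn it. Other genes of the set also kept their sign in all 18, among them PDK1, ALDOA, CS and MDH1. Signal near background left ALDOC and IDH2 without a fold.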
